A study of Rattus norvegicus with 43 samples.

Results

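Dbp, Per2, Nr1d2 and Bhlhe41 are genes of the circadian clock or its direct outputs, and their transcripts were followed across 12 groups of rat tissue. They were chosen by gene symbol from the platform annotation, 4 of the 4736 genes named there, and had 5 of the 8799 probe sets on the array: J03179_at and J03179_g_at for Dbp, AB016532_at for Per2, U20796_at for Nr1d2 and AF009329_at for Bhlhe41. The tissues were liver, lung and mammary gland of outbred Sprague-Dawley females, whose treatment started at 100 days of age and lasted 7 days. Targretin, or bexarotene, is a selective activator of retinoid X receptors and reached the rats by gavage, at 60 mg per kg of body weight. Mixed into the feed were 9-cis retinoic acid (9cRA), which binds retinoic acid receptors as well as retinoid X receptors, at 100 mg per kg diet, and 4-hydroxyphenylretinamide (4HPR), a synthetic retinoid amide, at 782 mg per kg diet. The controls received diet only. Each group had 4 arrays, except that all Targretin groups, the lungs of diet controls and the mammary glands with 4HPR had 3, which makes 43 in all. Agents, doses and routes differed together, and the labels name neither a gavage control nor the hour of day at which tissue was taken, so gavage and Targretin cannot be told apart.

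The circadian clock is a feedback loop of transcription that most cells carry. CLOCK and BMAL1 bind E-box elements and switch on the Period and Cryptochrome genes, whose proteins then repress CLOCK and BMAL1. Per2 is a Period gene of this negative limb. Bhlhe41 (also called Dec2) encodes a helix-loop-helix repressor that competes at E-boxes. Nr1d2 (REV-ERB beta) is a nuclear receptor of the stabilizing loop that represses Bmal1. Dbp encodes a PAR bZIP factor that carries the rhythm to metabolic genes of liver through D-box elements. Transcripts of these genes swing widely over the day in liver, so each array gives only a snapshot of them. With no hour of day in the labels, a difference between agents cannot be told apart from one between hours of sampling.

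The promoter windows below are shown because the members differ in which clock elements they hold near their start. They come from RefSeq (build GRCr8), in which all 4 members matched, and run 5′ to 3′ on the gene's strand with at most 30 bases inside the annotated gene. Capitals mark exact matches, on either strand, to the E-box CACGTG, the E′-box CACGTT, the D-box TTATGTAA and the nuclear receptor core element AGGTCA.
Per2, chr9:99497040-99497243, minus strand: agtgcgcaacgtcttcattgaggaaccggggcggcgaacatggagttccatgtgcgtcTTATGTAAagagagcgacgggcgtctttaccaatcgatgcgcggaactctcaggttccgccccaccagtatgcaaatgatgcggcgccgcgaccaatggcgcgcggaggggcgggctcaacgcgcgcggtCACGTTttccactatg
Bhlhe41, chr4:180569386-180569605, minus strand: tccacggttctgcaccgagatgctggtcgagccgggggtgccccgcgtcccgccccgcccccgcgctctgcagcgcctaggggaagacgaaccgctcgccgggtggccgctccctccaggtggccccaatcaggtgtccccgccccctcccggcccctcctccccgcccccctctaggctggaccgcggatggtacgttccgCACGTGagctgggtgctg
Nr1d2, chr15:9954784-9955063, plus strand: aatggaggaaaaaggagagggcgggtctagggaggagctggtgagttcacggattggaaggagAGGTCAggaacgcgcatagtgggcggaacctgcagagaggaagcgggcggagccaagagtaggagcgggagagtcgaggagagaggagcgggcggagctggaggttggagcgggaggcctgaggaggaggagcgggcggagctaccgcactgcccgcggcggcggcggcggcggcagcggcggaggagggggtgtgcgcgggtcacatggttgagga
Per2 held a D-box at base 59 and an E′-box at base 189 of the stretch printed. Bhlhe41 held an E-box at base 203, and Nr1d2 a core element at base 64. In the 300-base windows of 33469 RefSeq entries, the E-box was found in 6.42%, the E′-box in 4.83%, the D-box in 0.893% and the core element in 16.2%. The Dbp window, chr1:105312006-105312305 on the plus strand, held none of these letters. A match describes the sequence and does not show binding.

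Values are MAS5 signals, a linear intensity per probe set that the authors had scaled to a common trimmed mean on every array. Signals of different probe sets cannot be ranked against each other. Changes are differences in log2 of the signal plus 38.1, a pseudocount that understates the change of dim probe sets, and are given ± the standard error of limma. A probe set passed where its Benjamini-Hochberg adjusted p over all probe sets tested in that organ was under 0.05. The labels do not say that arrays came from separate animals, so these p-values measure only the spread between arrays. Tissue identity was checked on the diet arrays with marker lists, and no marker probe set was at 0. The summed signal of 11 lung epithelial probe sets was 373675 to 417587 in lung and at most 19355 in the other organs, that of 22 hepatocyte probe sets was 957492 to 1140040 in liver, and that of 11 mammary epithelial probe sets was 58753 to 120999 in mammary gland. Diet mammary gland also carried hepatocyte signal of 122093 to 189620.

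In untreated rats the members differed most in how unevenly they were spread over the organs. Bhlhe41 read 273, 268.2, 172.4 and 298.8 on the diet liver arrays, 972.7, 1299.3 and 1189.2 in lung, and 2878.3, 6346.8, 7754.7 and 4578.7 in mammary gland. No organ overlapped another, and the mean in mammary gland was 21.3 times that in liver. On the log2 scale mammary gland exceeded liver by 4.15 ± 0.31 (adjusted p = 2.017e-14) and lung by 2.10 ± 0.34 (adjusted p = 2.887e-06), and lung exceeded liver by 2.05 ± 0.34 (adjusted p = 2.014e-06). Nr1d2 had the same order. Its diet signals were 1345.2, 1308.1, 1709.4 and 1417.1 in liver, 2116.9, 3849.1 and 3456.3 in lung, and 3399, 6118.5, 5413 and 4449.3 in mammary gland. Liver lay below both other organs, by 1.06 ± 0.23 against lung (adjusted p = 1.793e-04) and 1.69 ± 0.22 against mammary gland (adjusted p = 1.417e-08), while lung and mammary gland overlapped although their difference of 0.63 ± 0.23 passed (adjusted p = 0.027).

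Per2 and Dbp were more even. Per2 read 931.2, 679.3, 505.6 and 672.2 in diet liver, 734.2, 1421.7 and 1723.3 in lung, and 669.6, 1687.9, 1799 and 1369.2 in mammary gland. It was 0.89 ± 0.38 higher in mammary gland than in liver (adjusted p = 0.0436), with overlapping arrays, and its differences of 0.80 ± 0.41 between lung and liver (adjusted p = 0.0969) and 0.08 ± 0.41 between mammary gland and lung did not pass. Dbp by J03179_g_at was 0.64 ± 0.25 higher in mammary gland than in liver (adjusted p = 0.0274), but by J03179_at that difference was 0.03 ± 0.26, so the pair of Dbp probe sets, both named for the same sequence record, did not give the same call. In all, 2 of 5 member probe sets passed between lung and liver, 4 of 5 between mammary gland and liver and 2 of 5 between mammary gland and lung. Of all probe sets, 55.3%, 59.4% and 44.8% passed in these comparisons, so organ differences were common on this array.

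**Figure D1:**
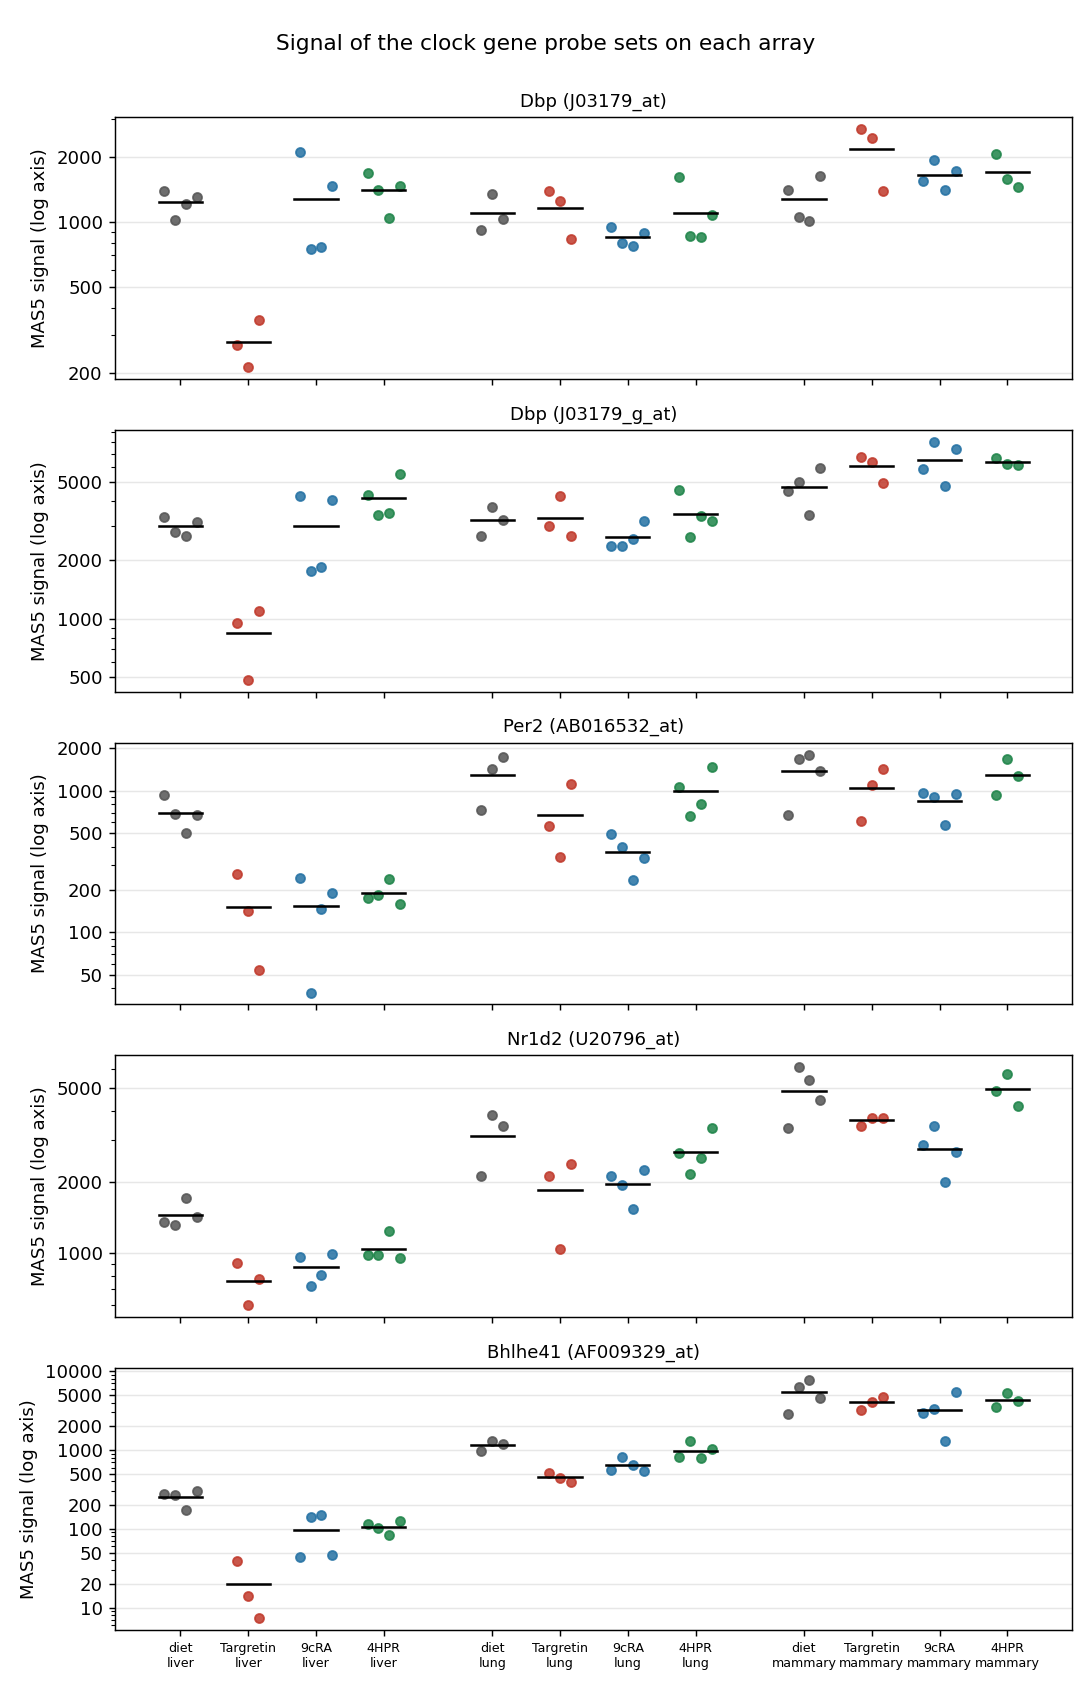
MAS5 signal (log axis) of the 5 probe sets on each of the 43 arrays, by organ and agent. Points are arrays in order of their number, horizontal bars are group means, and colours are agents. Dbp is lowest in the 3 Targretin livers, Per2 is low in all treated livers, and Bhlhe41 climbs from liver to lung to mammary gland.

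In liver, Targretin was accompanied by lower signal of every member. Dbp, the D-box activator, fell on both probe sets. By J03179_at the diet livers read 1398.3, 1018.4, 1210.2 and 1313.6 and the Targretin livers 268.4, 211.6 and 351.2, a fall of 2.03 ± 0.30 (adjusted p = 2.014e-04). By J03179_g_at they read 3327.7, 2771.2, 2645.9 and 3134.7 against 948.5, 485.2 and 1094.2, a fall of 1.84 ± 0.31 (adjusted p = 7.739e-04). The groups lay far apart, the mean being 4.46 and 3.52 times higher in diet liver.

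Per2, the negative-limb repressor, read 256.3, 142.1 and 53.7 in Targretin liver, all below the lowest diet liver at 505.6. It fell by 2.09 ± 0.43 (adjusted p = 0.0037). Nr1d2, the stabilizing-loop receptor, read 908.6, 599.2 and 773.2, again with no overlap with diet, and fell by 0.90 ± 0.18 (adjusted p = 0.0032), the smallest change among the members. Bhlhe41, the E-box repressor, read 39.3, 13.9 and 7.4, which is at the bottom of the signal range, and fell by 2.34 ± 0.43 (adjusted p = 0.0014). Its true ratio is uncertain at such values, and none is given. All 5 probe sets passed as lower, where 6.26% of the 6084 tested did. The members were chosen with earlier results of these arrays known, so nothing is read from that count.

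The count also includes dim members. Bhlhe41 was above the 40th percentile of its array, the level required for testing, on 3 diet livers and on none of the 11 treated livers, so it was tested only because it was high in diet. Per2 was above that level on 6 of 15 livers: 4 with diet, 1 with Targretin, 0 with 9cRA and 1 with 4HPR. It too reached the required 3 arrays only because it was high in diet. Dbp by J03179_g_at and Nr1d2 exceeded that level on every liver. Without any filter Bhlhe41 still passed, and the Dbp, Per2 and Nr1d2 calls held in each of 22 alternative analyses. Bhlhe41 passed in each of the 18 that tested it, the others being ones without a diet array. For Bhlhe41 and Per2 these alternatives reuse the same low values, so they do not remove the limit of being tested through diet. In the same livers the summed signal of 10 leukocyte probe sets (5 of 8 listed genes) was 7592 to 11296 with Targretin and 16828 to 20463 on diet, and that of the hepatocyte probe sets (9 of 10 genes) was 861031 to 1134351 against 957492 to 1140040. Adipocyte signal (11 probe sets, 7 of 8 genes) was 9031 to 10436 against 7258 to 8261. The part of these in the result was not tested. In bulk tissue, fewer cells that express a gene and less RNA per cell cannot be told apart.

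9cRA and 4HPR in the feed were accompanied by lower Per2 in liver, while Dbp did not pass as changed with either agent. Per2 read 242.1, 37.4, 146.1 and 188.4 with 9cRA and 173.4, 183, 238.8 and 158.3 with 4HPR, all below every diet liver. Of these arrays, 0 with 9cRA and 1 with 4HPR were above the level required for testing, so Per2 was tested through diet. It fell by 2.06 ± 0.40 with 9cRA (adjusted p = 0.0066) and by 1.68 ± 0.40 with 4HPR (adjusted p = 0.0302). The 4HPR call was lost without 4HPR array 1 or 2, without diet array 1, 2 or 4, and without the 4 arrays that stood apart, with an adjusted p up to 0.0939. Other signals separated these livers from diet as well, hepatocyte signal being 1316020 to 1582883 with 9cRA and leukocyte signal 10159 to 12485 with 4HPR, against the diet ranges given above, and their part was not tested. Nr1d2 read 959.2, 722.7, 806.6 and 986.3 with 9cRA, a fall of 0.71 ± 0.17 (adjusted p = 0.0192). It no longer passed when 9cRA array 2, 9cRA array 3 or diet array 3 was left out, with an adjusted p up to 0.0677. With 4HPR, Nr1d2 read 974.8, 977.2, 1243 and 951.4, which is also below every diet liver, but the difference of -0.47 ± 0.17 did not pass (adjusted p = 0.148).

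Bhlhe41 read 43.7, 141.4, 149 and 46.8 with 9cRA and 113.7, 102.2, 82.9 and 124.5 with 4HPR, all below the lowest diet liver at 172.4. The differences were -1.21 ± 0.39 (adjusted p = 0.0856) and -1.0 ± 0.39 (adjusted p = 0.181), and neither passed. With no filter on low values the 9cRA difference did (adjusted p = 0.047). Dbp stood apart from the other members here. By J03179_at it read 2111.5, 750.7, 768.8 and 1475.6 with 9cRA, where arrays 1 and 4 were above all diet livers and arrays 2 and 3 below them, and 1693.2, 1408.3, 1046.6 and 1467.7 with 4HPR. By J03179_g_at it read 4228, 1753.5, 1842.3 and 4065 with 9cRA, with the same split, and 4290.3, 3386.6, 3484.8 and 5538.4 with 4HPR, all above the diet livers. The differences were -0.08 ± 0.28 and -0.11 ± 0.29 with 9cRA and 0.17 ± 0.28 and 0.46 ± 0.29 with 4HPR, and none passed. Of the 5 probe sets, 2 passed as lower with 9cRA, against 2.61% of all tested, and 1 with 4HPR, against 1.59%. The 3 liver comparisons share the same 4 diet arrays, so they are not independent of each other.

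**Figure D2:**
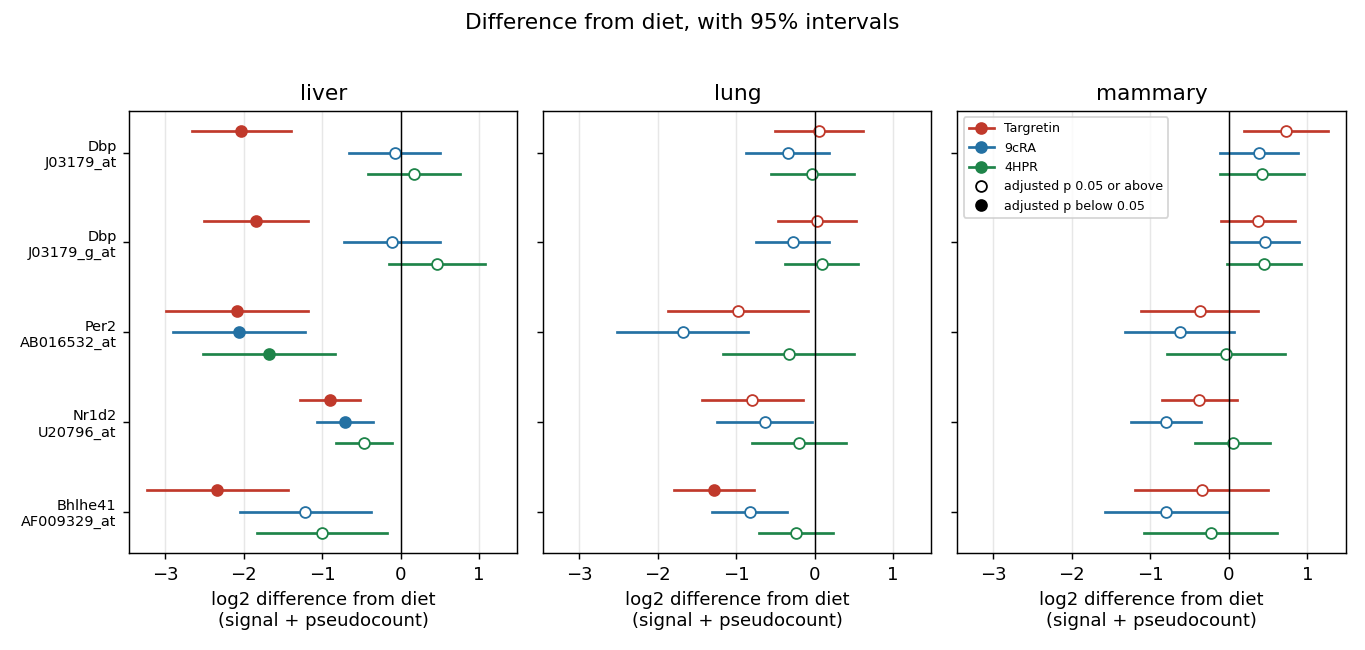
Log2 difference from diet (agent minus diet, signal plus 38.1) for each probe set in liver, lung and mammary gland, with the 95% interval of limma. Filled points have an adjusted p under 0.05. The filled points are all 5 probe sets with Targretin in liver, Per2 and Nr1d2 with 9cRA in liver, Per2 with 4HPR in liver, and Bhlhe41 with Targretin in lung.

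Set beside each other in liver, the agents differed in Dbp. Targretin minus 9cRA gave -1.95 ± 0.30 on J03179_at (adjusted p = 3.531e-04) and -1.73 ± 0.31 on J03179_g_at (adjusted p = 0.0019). Targretin minus 4HPR gave -2.20 ± 0.30 (adjusted p = 1.093e-04) and -2.30 ± 0.31 (adjusted p = 1.166e-04). No other member passed between agents in liver. For Per2 the difference between Targretin and 9cRA was -0.02, with a 95% interval from -0.93 to 0.88. Only 1 Targretin liver and 0 9cRA livers were above the level required for testing, so this is not read as an equal response. For Bhlhe41 every array of the 3 agents was below the level required for testing, so its difference of -1.33 between Targretin and 4HPR (adjusted p = 0.0671), which passed without a filter on low values, is not read as a difference between agents. The share of all probe sets that passed was 5.72% between Targretin and 9cRA, 7.87% between Targretin and 4HPR, and 0.164% between 9cRA and 4HPR, where 0 of 5 members passed in limma and 0 had an unadjusted p under 0.05, against 11.9% of all tested. Doses and routes differ between these groups.

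In lung, Bhlhe41 was lower with Targretin. It read 518.5, 443.5 and 391.2 on the Targretin arrays, all below the lowest diet lung at 972.7, a fall of 1.28 ± 0.24 (adjusted p = 0.0269). This was 1 of 5 probe sets, against 1.01% of the 5935 tested called lower. The call was lost without Targretin array 1 or diet array 3 or 4, in a fit of the 2 groups alone and with the array number as a block, with an adjusted p up to 0.183. In these lungs adipocyte signal was 13057 to 18788 with Targretin and 10210 to 11888 on diet, and mammary epithelial signal 22340 to 31204 against 32545 to 33986, neither overlapping. Hepatocyte signal was 15898 to 20171 against 13797 to 74733. Their part was not tested. With 9cRA, Bhlhe41 read 551.9, 815.7, 639.3 and 541.5, and with 4HPR 821.7, 1316, 781.6 and 1019.9.

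Per2 in lung read 566.4, 339.7 and 1114.7 with Targretin, where array 3 lay inside the diet range, and 1070.9, 667, 810.1 and 1463.6 with 4HPR. With 9cRA it read 490.6, 402.2, 235 and 335.4, all below the lowest diet lung at 734.2. The difference with 9cRA was -1.68 ± 0.39, as large as the 4HPR change in liver, yet the adjusted p was 0.306. It passed with array quality weights and without diet array 2, with the adjusted p ranging from 0.0018 to 0.919 over 21 alternatives. Nr1d2 followed a similar course, with 2106.7, 1037.3 and 2387.3 under Targretin, 2120.5, 1940.5, 1532.6 and 2252.2 under 9cRA, and 2647.9, 2153.9, 2513.8 and 3387.6 under 4HPR. Its differences of -0.80 ± 0.30 with Targretin (adjusted p = 0.133) and -0.64 ± 0.28 with 9cRA (adjusted p = 0.439) did not pass.

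Dbp in lung did not pass with any agent. By J03179_at it read 919.6, 1354.6 and 1033 on diet, 1402.2, 1247.4 and 832.5 with Targretin, 948.3, 796.7, 771.7 and 892.8 with 9cRA, and 1627.3, 858.8, 849 and 1074.5 with 4HPR. By J03179_g_at the whole range over 14 lungs was 2343.9 to 4580.4. The Targretin differences were 0.06 ± 0.26 and 0.03 ± 0.23, and every agent overlapped diet. In limma, 0 of 5 members passed with 9cRA and 0 with 4HPR, where 0% and 0% of all probe sets passed as lower; 3 members had an unadjusted p under 0.05 with 9cRA, against 11.1% of all probe sets, and 0 with 4HPR, against 4.6%. Between agents, Bhlhe41 was 1.04 ± 0.22 lower with Targretin than with 4HPR (adjusted p = 0.0353). It was the only member to pass between agents in lung, against 1.45% of all probe sets, and the call was lost in 10 of 20 alternatives, among them those without Targretin array 1 or 2, 4HPR array 2, 3 or 4, 9cRA array 4 or diet array 4. Hepatocyte signal was 44942 to 246095 in the 4HPR lungs, above all Targretin lungs, and adipocyte signal 9855 to 12258, below them; their part was not tested. Between Targretin and 9cRA 0.0168% of all probe sets passed, and between 9cRA and 4HPR 0%.

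In mammary gland, where Nr1d2 and Bhlhe41 were highest, no member passed against diet with any agent. By J03179_at the mean of Dbp was highest with Targretin, the arrays reading 1407.5, 1059.7, 1008.1 and 1630.3 on diet, 2699.1, 2449.2 and 1401.7 with Targretin, 1548.5, 1940.1, 1411.9 and 1726.3 with 9cRA, and 2074.1, 1593.2 and 1463.5 with 4HPR. The Targretin difference of 0.73 ± 0.25 pointed opposite to that in liver and just missed the threshold (adjusted p = 0.0632). It passed with array quality weights, without Targretin array 3, without diet array 4 and without the arrays that stood apart, with an adjusted p down to 0.0248. By J03179_g_at the diet glands read 4492.1, 5014.6, 3409.3 and 5933.3 and the Targretin glands 6724.3, 6369.3 and 4982.8, a difference of 0.37 ± 0.22 (adjusted p = 0.271). On this probe set 9cRA glands read 5845.5, 8038.6, 4757.8 and 7358, overlapping diet. The 4HPR glands read 6684.8, 6202.7 and 6100.8, above every diet gland, with a difference of 0.45 ± 0.22 that did not pass (adjusted p = 0.999). The mean on this probe set was 6500 with 9cRA and 6329 with 4HPR, both above the 6025 with Targretin, so the order of agents was not the same on both Dbp probe sets.

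Per2 read 614.8, 1101.2 and 1428.1 with Targretin, 963.9, 899.8, 570.2 and 945 with 9cRA, and 936.2, 1676.1 and 1279.7 with 4HPR, all overlapping diet. Nr1d2 read 3465.5, 3727.4 and 3745.1 with Targretin, 2862.1, 3442.6, 2005.8 and 2688.1 with 9cRA, and 4877.8, 5755.7 and 4207.8 with 4HPR. Its 9cRA difference of -0.80 ± 0.21 was close to that in liver but did not pass (adjusted p = 0.144). Without diet array 1, the lowest of its group for Per2, Nr1d2 and Bhlhe41, it did (adjusted p = 0.0383). Bhlhe41 read 3251.6, 4047 and 4748.4 with Targretin, 2936.7, 3343.1, 1311.4 and 5385.2 with 9cRA, and 3514.7, 5361.6 and 4199.3 with 4HPR, with differences of -0.34 ± 0.40, -0.80 ± 0.37 and -0.23 ± 0.40.

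The share of all probe sets called lower in mammary gland was 5.18% with Targretin, 0% with 9cRA and 0% with 4HPR. In limma 1, 3 and 0 members had an unadjusted p under 0.05 in either direction, against 30.3%, 18.6% and 2.97% of all probe sets. With Targretin this was Dbp by J03179_at, which was higher. With 9cRA, Dbp by J03179_g_at was higher and Nr1d2 and Bhlhe41 were lower. Between agents 0 of 5 members passed, against 2.05% of all probe sets between Targretin and 9cRA, 4.23% between Targretin and 4HPR and 0.0495% between 9cRA and 4HPR; 0, 0 and 1 members had an unadjusted p under 0.05, against 10.6%, 22.3% and 9.79%. Marker signal differed between Targretin and diet glands here, with overlapping ranges for mammary epithelium. Whether cell makeup differed was not tested. Hepatocyte signal was 8311 to 72357 in Targretin glands against 122093 to 189620 on diet, mammary epithelial signal was 112942 to 243915 against 58753 to 120999, and Targretin array 3 carried skeletal muscle signal of 68443 over 7 probe sets, against 2146 on the lowest Targretin array. The part of these in the mammary values was not tested.

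The labels do not say whether same-numbered arrays of an agent share an animal across organs. The response to Targretin was compared between organs in a fit of all 43 arrays, treated as independent. It differed for Dbp, by J03179_at (adjusted p = 1.271e-05) and J03179_g_at (adjusted p = 1.437e-04): relative to liver, the change was 2.09 and 1.87 higher in lung and 2.76 and 2.21 higher in mammary gland. It also differed for Bhlhe41 (adjusted p = 0.0109), by 1.05 in lung and 1.99 in mammary gland, though Bhlhe41 in treated liver was below the level required for testing on every array, so its change there is not exact. For Per2 the differences of 1.11 and 1.71 did not pass (adjusted p = 0.0992), nor did those of Nr1d2, at 0.11 and 0.53 (adjusted p = 0.484). Thus 3 of 5 probe sets passed, against 13.1% of 5120 tested in every organ. The count holds both probe sets of Dbp, and Bhlhe41 was tested in liver only because it was high in diet. Nothing is therefore read from that count. For 9cRA and for 4HPR 0 of 5 passed, against 0.312% and 0%, and 1 member, Per2 both times, had an unadjusted p under 0.05, against 11.7% and 7.09% of all tested. Per2 too was tested in liver only through diet, with 1 Targretin, 0 9cRA and 1 4HPR livers above the level required. Its organ differences are therefore not exact for any agent.

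Ordering all 12 groups by mean signal placed the treated livers last for Per2, Nr1d2 and Bhlhe41. For Per2 the lowest groups were 4HPR liver at 188 ± 35.1 (SD, n = 4), 9cRA liver at 154 ± 86.8 (n = 4) and Targretin liver at 151 ± 102 (n = 3), which did not differ beyond their spread, and 9cRA lung at 366 ± 108 (n = 4) came next, apart from them. For Nr1d2 the step beyond the spread was between diet liver at 1445 ± 182 and 4HPR liver at 1037 ± 138. For Bhlhe41 such steps lay between 9cRA mammary gland at 3244 ± 1676 and diet lung at 1154 ± 166, between Targretin lung at 451 ± 64.0 and diet liver at 253 ± 55.5, and between diet and 4HPR liver. The treated livers, at 106 ± 17.8 with 4HPR, 95.2 ± 57.8 with 9cRA and 20.2 ± 16.9 with Targretin, had no array above the level required for testing, so their order among themselves is not read. For Dbp the single step was between 9cRA lung, at 852 ± 82.6 on J03179_at, and Targretin liver at 277 ± 70.2, the remaining groups forming a continuous series.

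No other clock gene passed against diet in limma. The fixed lists held 12 other genes of the loops and their kinases, with 20 probe sets, of which 14 were bright enough to be tested in liver, 14 were in lung, and mammary gland had 13. Of those tested, 0 were called against diet in any organ. In alternative analyses up to 4 were called with Targretin in mammary gland, up to 2 with 9cRA and with 4HPR in liver and with each agent in lung, and up to 1 with Targretin in liver. At least 1 was called in 7 of 22 alternatives for Targretin and 7 of 22 for 9cRA in liver. Nr1d1 (REV-ERB alpha), the paralogue of Nr1d2, differed in liver by 0.72 ± 0.23 with Targretin (adjusted p = 0.0572), 0.76 ± 0.22 with 9cRA (adjusted p = 0.0512) and 0.79 ± 0.22 with 4HPR (adjusted p = 0.0587) on M25804_at, opposite in sign to Nr1d2. On its other probe set, M25804_g_at, the differences were -0.03, 0.47 and 0.53. Bhlhe40, the paralogue of Bhlhe41, differed in liver by -0.36 ± 0.24, 0.42 ± 0.22 and 0.22 ± 0.22 with the agents in the same order, and none passed.

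The PAR bZIP partners of Dbp did not pass either. Tef differed by -0.13 ± 0.29 and Hlf by -0.48 ± 0.31 with Targretin in liver, and Hlf by 1.17 ± 0.47 with Targretin in mammary gland (adjusted p = 0.106). The kinases that mark PER proteins for turnover, such as Csnk1d, and the others listed gave 0 calls of 5 genes. Bmal1, the sole positive-limb gene present, was too dim to be tested in any organ, with group means of 34.9 to 226 on AB012600_s_at, so the activating limb is not described by these arrays.

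**Figure D3:**
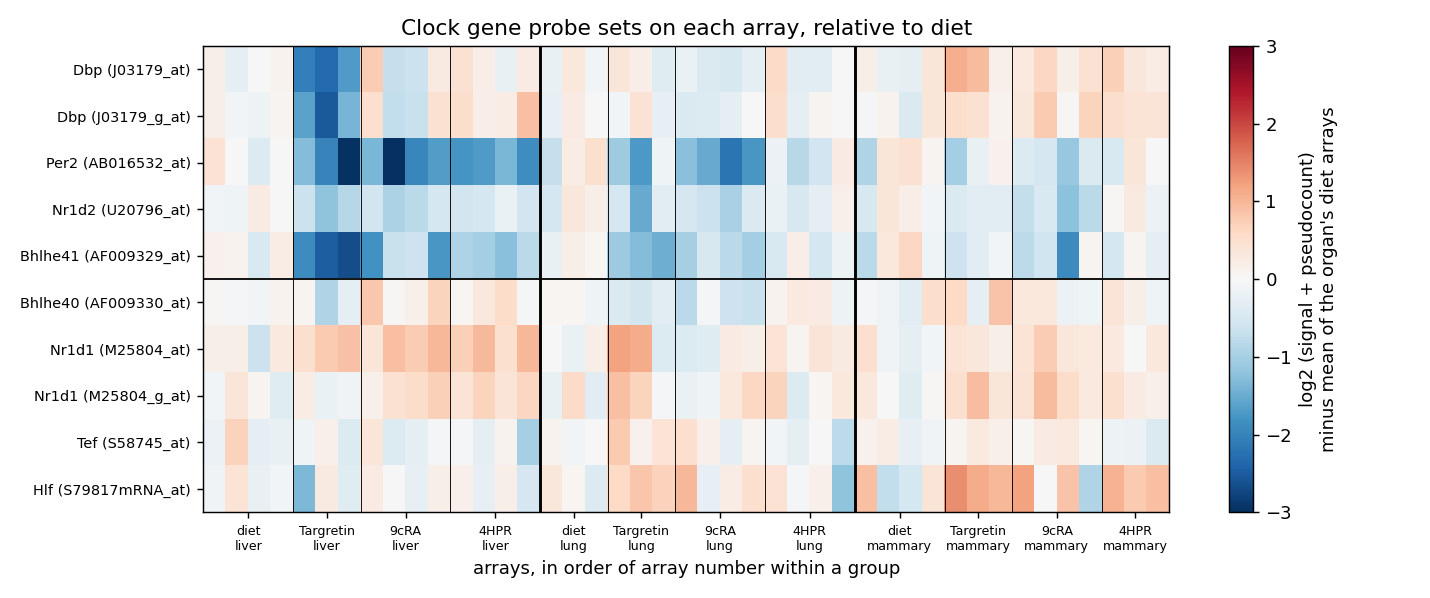
Log2 of signal plus 38.1 minus the mean of the organ's diet arrays, for the 5 member probe sets (above the line) and 5 further clock probe sets (below it), on 43 arrays in columns. Blue is below diet and red above, and the scale ends at 3 in both directions. The liver columns are blue for Per2 with all agents, and for Dbp on the Targretin arrays and on 9cRA arrays 2 and 3, while the Nr1d1 rows are mostly pale red in treated liver.

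Outputs of the clock outside its loops changed in both directions. Of 10 such genes tested in liver, 2 rose and 1 fell with Targretin, where 4.88% of all probe sets rose and 6.26% fell. A gene was counted if any of its probe sets passed. The 10 genes had 13 probe sets tested, so counts of genes and shares of probe sets are not like for like. Por, the electron donor of microsomal P450 enzymes, rose by 1.10 to 1.23 on 3 probe sets and Avpr1a, a vasopressin receptor, by 1.18 ± 0.28, while Tfrc, the transferrin receptor, fell by 1.85 ± 0.50. With 9cRA, Avpr1a rose by 1.0 ± 0.26 and Tat, a tyrosine-degrading enzyme, fell by 1.46 ± 0.27, where 2.55% of all probe sets rose and 2.61% fell. With 4HPR 0 of 10 passed, where 1.18% rose and 1.59% fell. The median over the list was -0.09 with Targretin, against -0.02 over all tested. In Targretin mammary gland, Tat fell by 2.93 ± 0.53 and Alas1, which starts heme synthesis, by 0.69 ± 0.22 on J03190_g_at (adjusted p = 0.0498), beside the lower hepatocyte signal given above. On J03190_at Alas1 differed by 0.36 ± 0.34 (adjusted p = 0.501).

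Glucocorticoid-responsive genes were followed because corticosterone also drives clock genes. Of 7 tested in liver, Dusp1, a MAP kinase phosphatase, fell with Targretin on all 3 probe sets, with differences of -1.61 ± 0.20 (S81478_s_at, adjusted p = 4.932e-05), -2.0 ± 0.44 and -2.31 ± 0.50, and Nfkbia, an inhibitor of NF-kappa B, rose by 0.97 ± 0.24 on X63594cds_at. With 9cRA Nfkbia rose by 0.99 ± 0.22 on that probe set and Tat fell as above, and with 4HPR 0 of 7 passed. On X63594cds_g_at Nfkbia differed by 0.32 with Targretin (adjusted p = 0.317) and 0.46 with 9cRA (adjusted p = 0.132). The shares of all probe sets that rose and fell in liver are those given for the clock outputs. They are again per probe set, while the 7 genes had 12 probe sets tested. In Targretin mammary gland Klf9 fell by 1.09 ± 0.24 on D12769_g_at but differed by 0.46 ± 0.25 on D12769_at. Cebpd rose by 0.95 ± 0.29 on M65149_at (limma adjusted p = 0.0442) but differed by 0.33 ± 0.37 on rc_AA946292_at (adjusted p = 0.578). Tat fell, where 7.96% of all probe sets rose and 5.18% fell. The list median was -0.26 with Targretin in liver, against -0.02 over all tested.

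Among arrays of the same group, the array lowest in Per2 was also the lowest in Nr1d2 in 9 of 12 groups, and in 6 of 12 the highest arrays coincided. Some groups of 3 or 4 arrays coincide in this way by chance. No expected share was computed and no test was made, and most Per2 values in treated liver are below the level required for testing. For Per2 and Bhlhe41 the lowest arrays coincided in 7 groups, for Nr1d2 and Bhlhe41 in 4, and for Per2 and Dbp in 5. The highest arrays of these pairs coincided in 4, 4 and 2 groups, in the same order. Over 43 arrays, after the mean of each organ was subtracted, Nr1d2 was the gene most like Per2 among 4222 candidate probe sets (Pearson r = 0.79). Next came Slc12a2, a sodium, potassium and chloride cotransporter (r = 0.78), and Pnn, a nuclear speckle protein (r = 0.72). These correlations include the differences between agents, and the points share arrays and scaling.

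**Figure D4:**
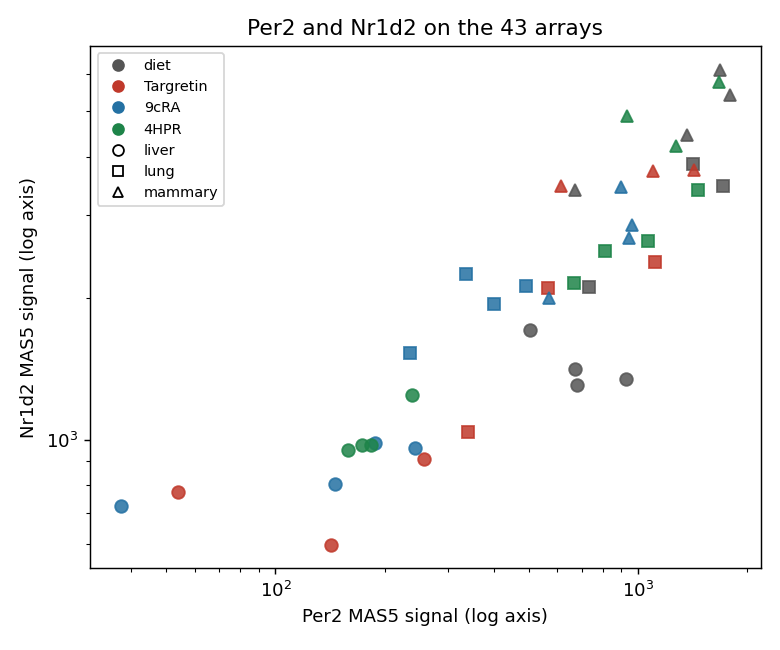
Nr1d2 signal against Per2 signal on the 43 arrays, both on log axes, coloured by agent and shaped by organ. Treated livers form the lower left, with Per2 between 37.4 and 256.3, and mammary glands the upper right.

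The genes most like Nr1d2 were Mpdz, a multi-PDZ scaffold (r = 0.84), Eif4e, the mRNA cap-binding factor (r = 0.81), and Rheb, a GTPase that activates mTORC1 (r = 0.81). Mpdz read 682 ± 181 in diet liver and 181 ± 58.2 in Targretin liver. Those most like Bhlhe41 were Id2, a helix-loop-helix inhibitor (r = 0.81), Tmed2, a vesicle cargo protein (r = 0.77), and Lipa, lysosomal acid lipase (r = 0.77). Id2 read 7316 ± 673 in diet liver, 2045 ± 121 with Targretin, 3911 ± 453 with 9cRA and 4078 ± 1337 with 4HPR. Dbp by J03179_g_at had weaker matches in Fmo1, a flavin monooxygenase (r = 0.67), Gsto1, a glutathione transferase (r = 0.62), and Rpp21, a ribonuclease P subunit (r = 0.62). Fmo1 read 3369 ± 814 in diet liver, 921 ± 183 with Targretin, 4339 ± 646 with 9cRA and 6945 ± 1141 with 4HPR.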

How the data were processed

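RNA of liver, lung and mammary gland was measured on 43 Affymetrix rat arrays, 1 per sample. The authors deposited linear MAS5 signal intensity per probe set, per the labels. The trimmed mean was 1501.78 to 1503.29 on every array, so no further scaling was applied. After 59 controls were removed, probe sets were tested in an organ where they exceeded the array's 40th percentile on at least 3 arrays. Log2 of the signal plus 38.1 (the 10th percentile) was fitted per organ with all 4 groups by limma 3.58.1 in R 4.3.3 (lmFit, eBayes with trend). Adjustment was by Benjamini-Hochberg over all probe sets tested. A fit of all arrays gave moderated F tests between organs. Groups came from the labels. Members are named in every group; other clock genes follow fixed lists, those that passed being named with up to 2 per list that did not, and likeness is the Pearson correlation after organ means were removed. Members and lists were chosen with earlier results of these data known. Same-numbered arrays were not paired: residuals of different agents had a median correlation of -8.610e-04 (liver), 0.0256 (lung) and 0.0124 (mammary gland). Between organs of the same agent and number it was 0.0602 over 41 pairs, ranging from -0.246 to 0.297. The procedure was tested on simulated data. Alternatives were quantile normalization, no filter, a pseudocount 4 times larger, an array-number block, array weights, fits of 2 groups and leaving out each array; leaving out 4 arrays that stood apart (mammary gland array 3 and lung array 2 of Targretin, liver array 4 of 4HPR and liver array 2 of diet) was added after the data were seen. Promoters are from RefSeq, and no genome was used.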

Additional observations from a re-analysis of the deposited data

Results flagged for a closer look

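The change with Targretin differed between organs for both Dbp probe sets (adjusted p = 1.271e-05 for J03179_at and 1.437e-04 for J03179_g_at) and for Bhlhe41 (adjusted p = 0.0109) by the moderated F test of limma over 43 arrays. Bhlhe41 was tested in liver only because 3 diet arrays were above the level required; 0 of the treated livers were. Dbp was lower in liver with Targretin and near its diet level in lung. In mammary gland it differed from diet by 0.73 on the log2 scale by J03179_at (adjusted p = 0.0632) and 0.37 by J03179_g_at (adjusted p = 0.271), and neither passed.

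Within groups of 4 arrays, a single array lay far from the rest in 2 of the 35 cases tested, and chance gives about 1 in 20. Per2 in 9cRA mammary gland was low on array 3, at 570.2 against 899.8 to 963.9 on the others, with a gap of 0.868 of the group's range, which is above the critical value of Dixon's test for 4 values. Nr1d2 in 4HPR liver was high on array 3, at 1243 against 951.4 to 977.2, with a gap of 0.900.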

How the results depend on the processing

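Of 1251 values compared under the alternatives, 1193 kept their direction and their side of the threshold, 14 lost a call, 11 gained one and 33 changed sign, none of them while called. The 5 members called with Targretin in liver were 4 to 5 when each array was left out. With each array left out, the number of members called ranged from 1 to 2 for 9cRA liver, 0 to 1 for 4HPR liver, Targretin lung, 9cRA lung, Targretin and 9cRA mammary gland, and Targretin against 4HPR in lung. Without the arrays that stood apart it was 0 for 4HPR liver, 0 for Targretin against 4HPR in lung and 1 for Targretin mammary gland. With array quality weights it was 3 for 9cRA lung, 1 for Targretin mammary gland and 0 for Targretin against 4HPR in lung, and in a fit of 2 groups it was 0 for Targretin lung. With the array number as a replicate block it was 0 for Targretin lung and 0 for Targretin against 4HPR in lung, and Dbp J03179_at in Targretin lung was -0.0713; the block changed no other member call. The cause was not tested in any of these.

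The values that changed sign were small. Dbp in Targretin lung was -0.0503 on J03179_at with quantile normalization and -0.0083 without the arrays that stood apart, and on J03179_g_at -0.16 with weights and -0.17 without those arrays. With weights, Dbp J03179_at in 4HPR lung was 0.0055, Nr1d2 in 4HPR mammary gland -0.13 and Per2 between Targretin and 9cRA in liver 0.14. With single arrays left out, Dbp ranged from -0.36 to 0.13 on J03179_at and -0.32 to 0.10 on J03179_g_at in 9cRA liver, from -0.0903 to 0.27 and -0.17 to 0.17 in Targretin lung, and from -0.23 to 0.12 and -0.0609 to 0.21 in 4HPR lung. Per2 in liver ranged from -0.42 to 0.42 for Targretin against 9cRA, -0.80 to 0.0366 for Targretin against 4HPR and -0.62 to 0.0153 for 9cRA against 4HPR, and in 4HPR mammary gland from -0.34 to 0.17. Nr1d2 there ranged from -0.11 to 0.17.

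Over all probe sets, the number called moved more widely. For Targretin, 678 in liver became 420 to 901, 142 in lung became 0 to 697 and 796 in mammary gland became 338 to 1308. For 9cRA, 314 in liver became 204 to 505, and 0 in lung and mammary gland became up to 964 and 148. For 4HPR, 169 in liver became 98 to 443 and 0 in lung became up to 398. Between agents the 479 of Targretin against 4HPR in liver ranged from 278 to 585, the 86 in lung from 0 to 348 and the 256 in mammary gland from 118 to 1108. The number of arrays limits what could be called, and Per2 and Bhlhe41 in treated liver are near the lower end of the signal range.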
